A study of Mus musculus with 10 samples.

Results

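The clustered protocadherin genes were examined in ChIP-seq data from mouse E14 embryonic stem (ES) cells. They were taken as every gene of the deposited count tables whose symbol starts with Pcdha, Pcdhb or Pcdhg, which gave 58 of the 24500 genes listed. Of these, 14 belong to the alpha cluster (Pcdha1 to Pcdha12, Pcdhac1 and Pcdhac2), 22 to the beta cluster (Pcdhb1 to Pcdhb22) and 22 to the gamma cluster. The gamma cluster holds 12 genes of the A type, 7 of the B type and 3 of the C type. Control cells were wild-type for Ezh2, and the comparison was with ex14D cells, an E14 derivative in which exon 14 of Ezh2 was disrupted with CRISPR-Cas9. As the study describes it, the disruption shifts the reading frame, so that the splice variant without this exon (ex14D-Ezh2) is the form left functional. The sample titles call the mutant a knockout, and the genotype label names the knockout of the exon. Each genotype had 2 libraries with an antibody against H3K27me3, 2 with an antibody against EZH2 and 1 input library, 10 in all, and both genotypes share the strain of the E14 line. How many edited lines stand behind the libraries is not given in the sources used here.

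Protocadherins are adhesion molecules of the cadherin superfamily, and the clustered members give neurons a surface identity that lets a cell tell its own branches from those of others. In the alpha and gamma clusters every gene has its own promoter and a large variable exon that is spliced to constant exons shared by the cluster, while the beta genes are single-exon genes. Neurons select a few of the alternate genes by promoter choice, a process that involves CTCF, cohesin and DNA methylation, whereas the C-type genes at the ends of the alpha and gamma clusters are used more uniformly. EZH2 is the catalytic subunit of polycomb repressive complex 2, which places trimethylation on lysine 27 of histone H3, a mark of silent developmental genes in ES cells.

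Reads counted on promoters numbered 594289 and 937207 in the control H3K27me3 libraries, 1450937 and 1248018 in the ex14D H3K27me3 libraries, and 409371 and 416778 in the control and ex14D inputs. Values are given as CPM, promoter reads scaled to a common library total. No spike-in is named in the sources used here, so every value is relative to the other promoters of the same library, and the total amount of the mark was not compared. The study reports less EZH2 protein and less H3K27me3 in ex14D cells by Western blot. By ChIP-PCR it reports less H3K27me3 at the developmental genes it measured. A promoter called higher or lower in ex14D below is so only relative to the other promoters. The labels do not say that the 2 libraries of a group came from separate cultures, so p-values measure the spread between these libraries only. The 2 H3K27me3 libraries of a genotype were not copies of each other (chi-square over its degrees of freedom, 2.31 for control and 1.95 for ex14D). The genotype itself could not be checked, because the read counts and called intervals used here do not show the sequence of the disrupted exon. The mark was found where it is known to lie in ES cells, with all 11 of the differentiation genes examined (such as Gata6 and Pax6) higher than input in control and 2 of 12 pluripotency genes higher (Klf4 and Fgf4). Vmn1r genes, which encode pheromone receptors, had a median log2 ratio over input of -1.82 in control, and ribosomal protein genes had -2.86.

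In the mouse genome GRCm38, the 58 genes lie on the plus strand of chromosome 18 in the order alpha, beta, gamma. The promoter windows and genes of the alpha cluster span positions 36929785 to 37188897, those of the beta cluster 37264498 to 37521419, and those of the gamma cluster 37661275 to 37841873. The arrangement limits what the counts can hold. The alpha genes share their constant exons and end together, as do the gamma genes, and in RefSeq 57 of the 58 lie wholly inside another gene, Pcdha1 being the exception with 8920 bp of its own. The promoter windows of Pcdha4, Pcdha6 and Pcdha7 each coincide with the start of a predicted read-through gene (Gm37013, Gm38666 and Gm38667), and these 3 members had between 0 and 3 reads in either input, where the other 55 had between 5 and 36. They did not pass the filter on low counts for the comparisons with input and are left out of the cluster medians over input, and Pcdha6 and Pcdha7 did not pass it for the comparison between genotypes either. The windows also contain sequence shared between members, since in the 12 alpha genes other than the C-type pair 5.05% to 25% of the 50-base words recur elsewhere in the clusters. In the gamma cluster this share was 18.9% at Pcdhgb4, 13.1% at Pcdhgb5 and 7.68% at both Pcdhgb6 and Pcdhgb7. Reads from such stretches could be placed on the wrong member.

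H3K27me3 lay over input at most clustered protocadherin promoters. In control cells 49 of the 55 members tested were higher than input and 0 were lower, while 25.2% of the 21261 promoters tested were higher and 12.7% lower (quasi-likelihood test of edgeR, Benjamini-Hochberg adjusted, threshold 0.05). The median log2 difference was 2.41 for the members and -0.08 for all promoters. In ex14D cells 45 of the 55 were higher and 0 lower, against 20.9% and 6.08% of all promoters, with medians of 2.29 and -0.24. At an unadjusted p under 0.05 the members that were lower also numbered 0 in both genotypes. DESeq2 gave 35 members higher in control and 40 in ex14D, where 3862 and 3803 of 23756 promoters were higher. It called 0 members lower, but it called only 24 of all promoters lower in control and 0 in ex14D. This count therefore says little about the members. These differences depend on how input and ChIP libraries are scaled to each other. With library sizes alone the median over all promoters was -1.62 in control and -2.11 in ex14D. In that setting 27 members were higher and 1 lower in control, and 17 were higher and 6 lower in ex14D. Of the 21261 promoters, 2981 were higher and about 12970 lower in control, and 2406 higher and about 15660 lower in ex14D. Each genotype has 1 input, which was assumed to vary like the H3K27me3 libraries.

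The clusters differed in level. As the simple ratio log2((CPM + 1)/(input CPM + 1)), averaged over the 2 control libraries, the median was 1.03 over the 11 alpha genes with usable input, 0.04 in beta and 1.17 in gamma, and -1.51 over all genes. The ex14D medians were 0.78, -0.00 and 1.10, and -1.93 over all genes. By type, the 5 C-type genes stood at 2.08 in control and 1.27 in ex14D, the 7 gamma B-type genes at 1.35 and 1.98, and the 12 gamma A-type genes at 0.52 and 0.13. C-type genes thus had the highest median of these types in control and B-type genes in ex14D, a difference that was not tested. All of these medians lay above that of all genes and below that of the Hoxa genes 1 to 11, classical polycomb targets, at 3.35 in control and 4.62 in ex14D. The 12 non-clustered protocadherins, related genes scattered through the genome, had a median of 2.33 in control. By the edgeR test in control, 10 of 11 alpha, 18 of 22 beta and 21 of 22 gamma members were higher than input. The 6 that did not pass were Pcdha8, Pcdhb4, Pcdhb8, Pcdhb9, Pcdhb11 and Pcdhga2, with adjusted p between 0.0553 and 0.645. The order of the members was alike in libraries of one genotype, with a Spearman rho over the 55 members of 0.894 between the control libraries and 0.963 between the ex14D libraries. These coefficients describe the agreement of libraries that share 1 input, and the members are not independent replicates.

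**Figure D1:**
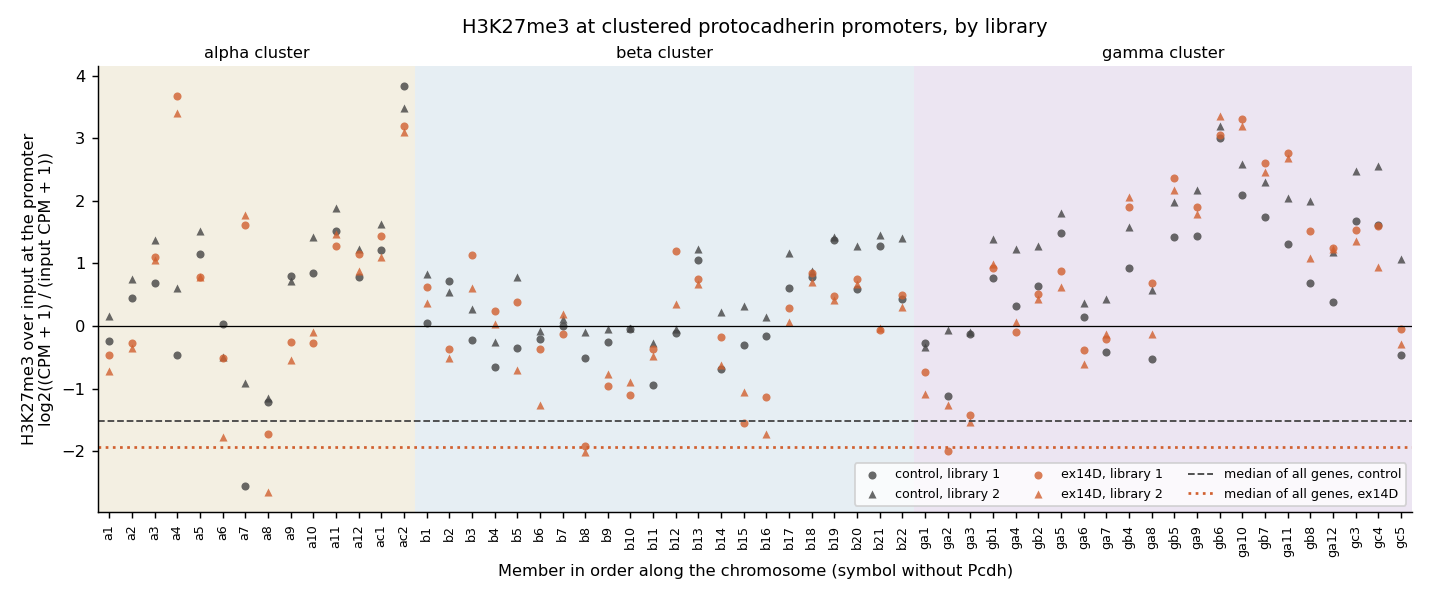
H3K27me3 over input, as log2((CPM + 1)/(input CPM + 1)), at each of the 58 members in chromosomal order, with 1 point per library (grey, control; orange, ex14D) and the medians of all genes as dashed and dotted lines. Most beta genes sit near 0, and the highest points are at Pcdhac2 (3.66 in control) and around Pcdhgb6 (3.10 in control), while Pcdha4, Pcdha6 and Pcdha7 rest on 0 to 3 input reads.

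Within the alpha cluster the highest level was at its end, where the C-type genes lie. Pcdhac2, the last gene of the cluster, had 397 and 310.5 CPM in control, with 406 and 379 in ex14D, against 26.9 and 43.2 CPM in the control and ex14D inputs. It was 5.24 (SE 0.40) above input on the log2 scale in control and 5.06 (SE 0.37) in ex14D (edgeR, adjusted p = 5.93e-28 and 5.42e-30), and its control ratio was at percentile 99.5 of all genes. Pcdhac1, the other alpha C-type gene, had 148 and 198 CPM in control and 158 and 125 in ex14D. Pcdha11, an alternate gene before Pcdha12 and the C-type pair, had 128 and 165 CPM in control and 129 and 148 in ex14D. Pcdha12 had 89.2 and 122 CPM in control and 81.3 and 67.3 in ex14D. The libraries of both genotypes overlapped at Pcdhac1 and Pcdha11. The lowest measurable alpha member was Pcdha8, with 18.5 and 19.2 CPM in control, 14.5 and 7.21 in ex14D, and 44 and 50.4 in the inputs. All 4 of its H3K27me3 values were below the inputs, and it did not pass the test in either genotype (log2 difference 0.33, SE 0.51 in control). Pcdha1, at the start of the cluster, had 53.8 and 71.5 CPM in control and 34.5 and 28.8 in ex14D, against 63.5 and 48 in the inputs, and passed with a log2 difference of 1.54 (SE 0.46, adjusted p = 0.00431 by edgeR) in control. With library sizes alone this difference was -0.0032. Pcdha6 had 5.05 and 3.2 CPM in control and 1.38 and 0 in ex14D, and Pcdha7 had 0 and 2.13 in control and 2.07 and 2.4 in ex14D, too few reads for either to be placed.

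In the beta cluster, the single-exon genes, levels were lower, with control ratios from -0.60 to 1.40. The highest was Pcdhb19, with 135 and 139 CPM in control and 97.9 and 92.9 in ex14D. Pcdhb21 had 108 and 123 CPM in control against 60 and 60.9 in ex14D, and Pcdhb13 had 77.4 and 87.5 against 53.1 and 50.5. At these 3 genes both ex14D values lay under both control values in CPM. On that scale promoters shifted as a whole, with a median log2 change of -0.47 over all promoters tested (library sizes alone). How many of all promoters showed such a separation was not counted. In the main comparison between genotypes the log2 changes were -0.07 at Pcdhb19, -0.49 at Pcdhb21 and -0.23 at Pcdhb13. None of the 3 passed (adjusted p between 0.309 and 0.91, edgeR). The lowest was Pcdhb11, with 35.3 and 56.6 CPM in control and 27.6 and 25.6 in ex14D. Pcdhb4 had 35.3 and 46.9 CPM in control against 40 and 34.5 in ex14D. At Pcdhb8 the control libraries gave 13.5 and 18.1 CPM and the ex14D libraries 6.89 and 6.41, against 19.5 and 28.8 in the inputs. Pcdhb8 did not pass the test over input in either genotype (adjusted p = 0.109 in control and 0.825 in ex14D, edgeR).

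In the gamma cluster, low genes stood at the start and high genes further along. The first 3 genes, Pcdhga1, Pcdhga2 and Pcdhga3, had control ratios of -0.30, -0.59 and -0.11, the lowest of the cluster. Pcdhgb6 had the highest, with 319.7 and 367 CPM in control and 544 and 669 in ex14D against 39.1 and 64.8 in the inputs, which was 4.67 (SE 0.37) above input in control and 5.11 (SE 0.35) in ex14D on the log2 scale. Pcdhga10 followed with 286 and 400.1 CPM in control and 365 and 337 in ex14D. Of the gamma C-type genes, Pcdhgc3 had 135 and 236 CPM in control and 176 and 155 in ex14D, and Pcdhgc4 had 173 and 335 in control and 198 and 125 in ex14D. Pcdhgc5, the last gene of the cluster, was lower, with 37 and 109 CPM in control and 55.8 and 47.3 in ex14D. At all 3 the control libraries stood further apart than the ex14D libraries, with control library 2 the highest, and the genotypes overlapped. All 5 C-type genes passed the test over input in both genotypes. At Pcdhgc5 the log2 difference in control was 2.10, and it was 0.99 without control library 2. With library sizes alone it was 0.56 and did not pass (adjusted p = 0.276, edgeR).

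The genes around the clusters did not carry the mark at a comparable level. Of the 17 other listed genes within 150 kb of the clusters or between them, 12 could be tested, and 0 were higher than input in either genotype (0 also at an unadjusted p under 0.05 and by DESeq2), while Vaultrc5 and Diaph1 were lower in control. The read-through genes named above are among the 17 and had too few input reads to test. Slc25a2 and Taf7, which lie between the beta and gamma clusters, had control ratios of -1.81 and -2.33. These neighbours were chosen by position after the values of the members were known. Pcdhga1, the first gamma gene, had a log2 difference over input of 0.96 in ex14D and did not pass (adjusted p = 0.149, edgeR). In control the difference was 1.23 (SE 0.47) and passed (adjusted p = 0.0302, edgeR). This control call did not hold with all counted reads as library size (adjusted p = 0.0531, edgeR) or by DESeq2 (adjusted p = 0.345).

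Called intervals were then set against the promoters. For each library separately, the authors had called broad peaks of H3K27me3 with MACS2 and domains of EZH2 with hiddenDomains. A promoter was counted as holding an interval when it overlapped the 1 kb window around the start site by at least 1 bp. Both control libraries had an H3K27me3 peak at 39 of the 58 members, where 17.6% of 24368 genes had one, and both ex14D libraries had one at 40, where 16.1% of all genes had one. Of the 39, 34 kept the peak in both ex14D libraries, where 83.5% of all genes with a control peak did. The 5 that did not were Pcdha1, Pcdha2, Pcdha12, Pcdhb15 and Pcdhga3. By library, 41 and 51 members had a peak in control and 48 and 42 in ex14D. The near equality of 39 and 40 depended on the rule for a peak. With peaks of a q under 0.001 the counts were 12 in control and 26 in ex14D, where 8.91% and 12.3% of all genes had one. With an overlap of at least 500 bp they were 26 and 16, where 3417 and 3147 of the 24368 genes had one. Peaks often covered several promoters. The 51 members with a peak in control library 2 shared 21 peaks, the longest of 55.84 kb in the gamma cluster, so members are not separate observations.

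The intervals were centred downstream of the start sites. At 1 kb downstream, peaks covered 49 and 54 of the 58 members in control and 52 and 47 in ex14D. At 500 bp upstream they covered 26 and 42 members in control and 17 and 14 in ex14D. At 4 kb downstream they covered 19 and 42 members in control and 17 and 11 in ex14D. On both flanks, upstream of the start site and from 3.5 kb downstream, the 2 ex14D libraries were thus below both control libraries, while around 1 kb downstream the genotypes overlapped. Peaks in the genome numbered 12318 and 19978 in control and 14441 and 9465 in ex14D. The part of peak number in the coverage of the flanks was not tested. By cluster, the upstream counts were 8 and 10 of 14 in control and 3 and 2 in ex14D for alpha, 7 and 13 of 22 in control and 3 and 1 in ex14D for beta, and 11 and 19 of 22 in control and 11 and 11 in ex14D for gamma. Over all genes, the upstream position was covered at 3385 and 4645 of them in control and at 3941 and 3177 in ex14D, with the genotypes overlapping. The position 4 kb downstream was covered at 1568 and 2387 genes in control and at 1675 and 1235 in ex14D, where they also overlapped. With 2 libraries per genotype an exact permutation test cannot go below a two-sided p of 0.333, and no test was made.

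**Figure D2:**
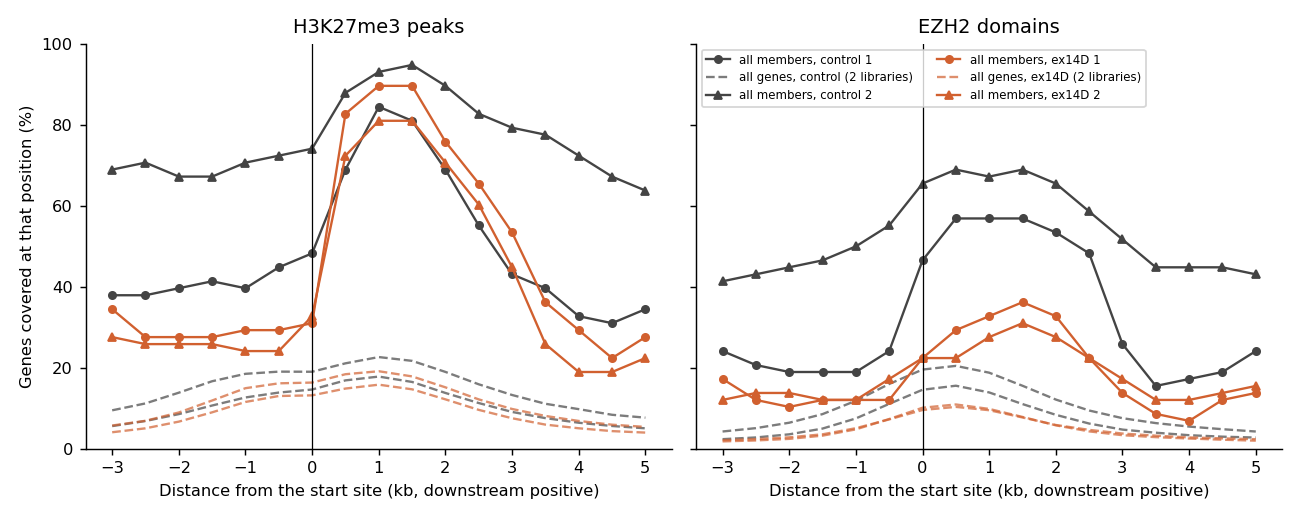
Share of genes covered by an H3K27me3 peak (left) or an EZH2 domain (right) at each distance from the start site, for the 58 members (solid lines with points, 1 line per library) and all genes (dashed). Coverage of the members was highest 1 to 1.5 kb downstream for H3K27me3, and the ex14D lines (orange) lie below both control lines (grey) upstream of the start site and from 3.5 kb downstream.

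The length covered was summed over each cluster. In the alpha cluster, peaks covered 56.2 and 80.8 kb in control and 41.4 and 34.7 kb in ex14D. In the beta cluster they covered 52.5 and 101.8 kb in control and 53.2 and 43.6 kb in ex14D, and in the gamma cluster 73.6 and 113.4 kb in control and 84.7 and 76.4 kb in ex14D. Only in alpha did both ex14D libraries lie below both control libraries. Over the whole genome the peaks covered 37.8 and 62.6 Mb in control and 47.1 and 32.6 Mb in ex14D, and the part of these totals in the spread between libraries was not tested. Gamma was the most densely covered cluster in every library, at 40.8% to 62.8% of its length, where 1.20% to 2.30% of the genome was covered.

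The number of CpG dinucleotides in the promoter window varied with the cluster. The median was 37.5 in alpha, 15 in beta, 34 in gamma and 50 in the C-type genes, against 32 over all genes. Over the 55 members with usable input, CpG number and the control H3K27me3 ratio had a Spearman rho of 0.493, with 0.632 over the 22 gamma members, 0.347 over 11 alpha members and -0.0057 over the 22 beta members. The relation over all members therefore combined a difference between clusters with one inside gamma. Pcdhac2, with 69 CpGs, had the highest ratio, and Pcdhb9, with 6 CpGs, one of -0.15. These coefficients are descriptions, since the points share the same libraries and neighbouring sequence.

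**Figure D3:**
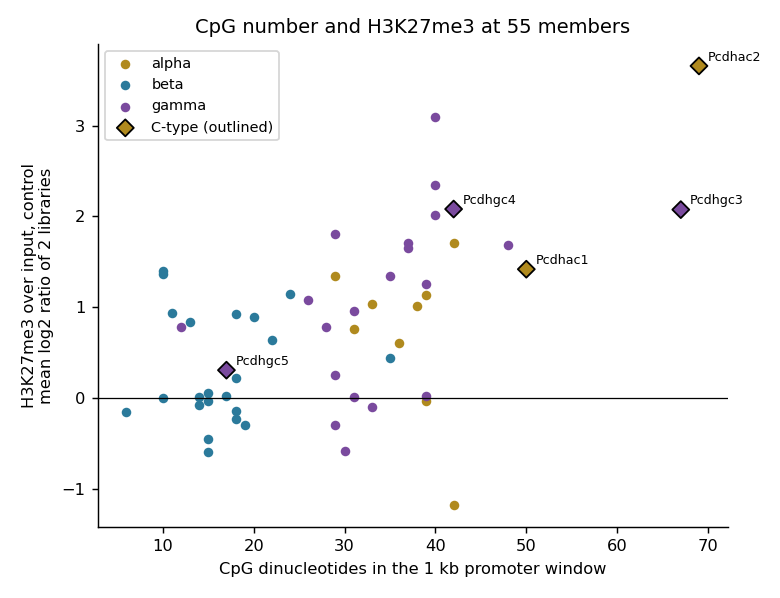
CpG dinucleotides in the 1 kb promoter window against the mean control H3K27me3 ratio, log2((CPM + 1)/(input CPM + 1)), for 55 members coloured by cluster, with C-type genes as outlined diamonds. Beta genes group at the left with ratios from -0.60 to 1.40, and Pcdhac2 lies at the upper right with 69 CpGs and a ratio of 3.66.

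H3K27me3 was then compared between genotypes, relative to the other promoters of each library. Of the 56 members tested, 4 were higher and 1 was lower in ex14D (quasi-likelihood test of edgeR over 14883 promoters, Benjamini-Hochberg adjusted, threshold 0.05). Over all promoters 5.83% were higher and 3.25% lower, so that the members' shares of 7.14% and 1.79% were near the background. The median log2 change was -0.10 for the members and -0.03 for all promoters. By cluster, 0 of 12 alpha and 0 of 22 beta members changed in either direction, and in gamma 4 of 22 rose and 1 fell. At an unadjusted p under 0.05, 1 alpha member was higher and 1 lower, and 1 beta member was lower. DESeq2 likewise called 0 alpha and 0 beta members, and 3 gamma members higher and 1 lower. Of the 22 beta genes 15 had a log2 change below 0, with a median of -0.18, and of the 12 alpha genes 8 did, with a median of -0.11. Over all promoters, 7706 of 14883 had a change below 0.

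The 4 that rose lie close together in the second part of the gamma cluster. Pcdhgb6 rose from 319.7 and 367 CPM to 544 and 669, a log2 change of 1.27 (SE 0.20, adjusted p = 8.63e-05 by edgeR). Pcdhgb7 rose from 190.1 and 279.6 CPM to 399.7 and 359.8, a log2 change of 1.13 (SE 0.21, adjusted p = 0.000551). At both genes each ex14D library lay above each control library. Pcdhga11 had 209 and 348 CPM in control and 381 and 359.8 in ex14D, a log2 change of 0.85 (SE 0.22, adjusted p = 0.0113), with the control libraries further apart than the genotypes at their nearest. Pcdhgb5 had 146 and 216 CPM in control and 238 and 209.9 in ex14D, a log2 change of 0.74 (SE 0.22, adjusted p = 0.0298). The genotypes overlapped at Pcdhgb5, which was higher in 3 of 4 pairs of libraries, while the other 3 were higher in 4 of 4.

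These 4 sit in a run of 6 neighbouring genes, Pcdhgb5, Pcdhga9, Pcdhgb6, Pcdhga10, Pcdhgb7 and Pcdhga11, with start sites from position 37730971 to 37755773. The run was picked out after its values were seen. The remaining genes in it did not pass. Pcdhga9 had 159.9 and 268 CPM in control and 164 and 151 in ex14D (log2 change -0.01, adjusted p = 0.991), and Pcdhga10 had a log2 change of 0.47 (SE 0.20, adjusted p = 0.169). The median change of the 6 was 0.79, of the 5 C-type genes 0.14, of the gamma B-type genes 0.53 and of the gamma A-type genes -0.25. All 7 B-type genes had a change above 0, the smallest at 0.03, and 9 of the 12 A-type genes had one below 0. Over the 14883 promoters tested, 7177 were above 0 and 7706 below. Set against the change of the inputs, 6 B-type genes were above 0 and 1 below, and 6 A-type genes were above and 6 below. A-type and B-type genes alternate along the cluster. The difference between the types was not tested.

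The gene that fell was Pcdhga3, near the start of the gamma cluster. It went from 60.6 and 61.9 CPM in control to 20 and 18.4 in ex14D, a log2 change of -1.22 (SE 0.34, adjusted p = 0.0189 by edgeR), and was lower in 4 of 4 pairs of libraries. Its H3K27me3 was above input in control (log2 difference 1.44, SE 0.46, adjusted p = 0.00743) and did not pass the test over input in ex14D (0.36, SE 0.49, adjusted p = 0.615). Its neighbours Pcdhga1 and Pcdhga2 had log2 changes of -0.50 and -0.58 without passing the test. Pcdhac2, the highest of the alpha cluster, had a log2 change of 0.60 (SE 0.20, adjusted p = 0.0613, edgeR) and did not pass. Without control library 1 the change was 0.76. The genotypes overlapped at Pcdhac2, with ex14D higher in 3 of 4 pairs of libraries. Set against the change of the inputs, its change was -0.18 (SE 0.59).

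**Figure D4:**
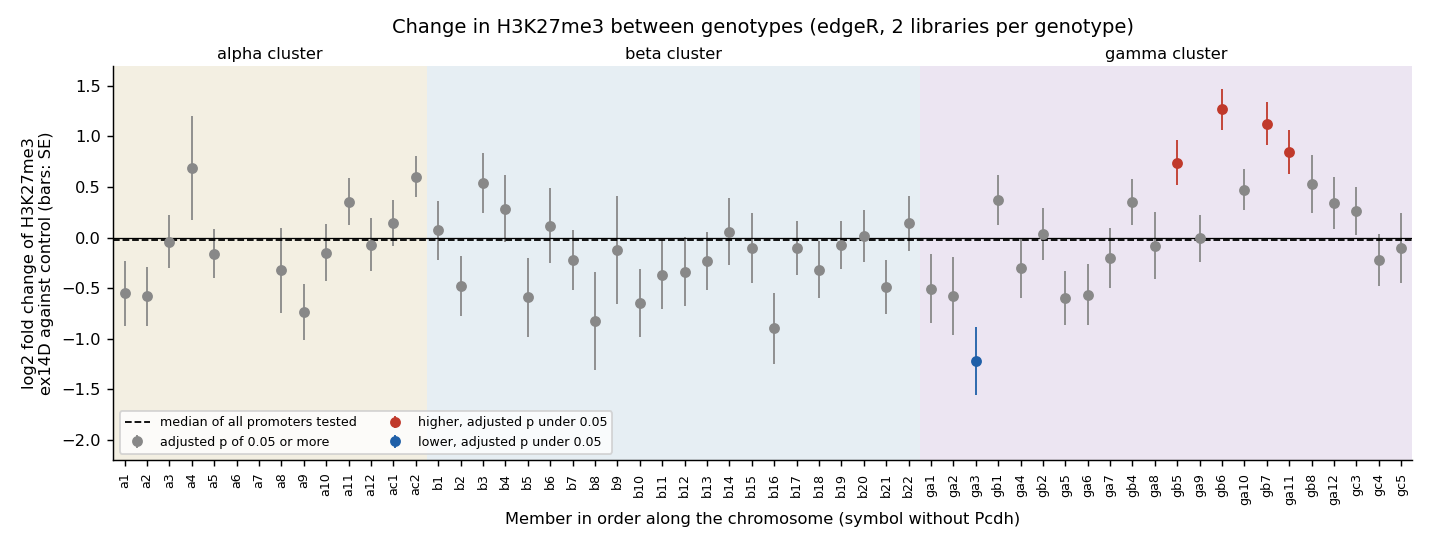
Log2 fold change of H3K27me3 between ex14D and control at each member in chromosomal order, with approximate standard errors as bars, members past the threshold in red (higher) or blue (lower), and the median of all promoters tested as a dashed line. The 4 red points, from 0.74 to 1.27, fall within 6 neighbouring gamma genes, and the blue point is Pcdhga3 at -1.22.

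The calls were repeated with each library left out, where the remaining one of its group is assumed to vary like the other group. Fewer promoters passed in most of these settings, with 183 to 797 higher and 55 to 610 lower over all promoters, against 867 and 483 with all libraries. Pcdhgb7 passed the threshold with each of the 4 libraries left out in turn (adjusted p from 0.00386 to 0.0482, edgeR). Pcdhgb6 passed in 3 of the 4 and had a log2 change of 1.33 with an adjusted p of 0.0517 without control library 2. Pcdhga11 passed only without control library 2 (1.23, adjusted p = 0.0482), and its change was 0.51 without control library 1 (adjusted p = 0.122). Pcdhgb5 passed in none (adjusted p from 0.0687 to 0.373), with changes from 0.48 without control library 1 to 1.02 without control library 2. Pcdhga3 passed only without control library 1 (adjusted p = 0.0118), while its change stayed between -1.27 and -1.16 in all 4 settings. Library sizes alone in place of TMM factors moved the median change of all promoters to -0.47. In that setting Pcdhgb6 (0.82) and Pcdhgb7 (0.68) were the 2 members still higher, and 10 members were lower. Over all promoters 398 were then higher and 2130 lower, so the fall in these counts was not particular to the members. The direction of the members' median turned with 1 library, since it was 0.22 without control library 2 and -0.34 without control library 1. When the change was set against the change of the inputs, 0 of 55 members passed by edgeR (2 higher and 0 lower at an unadjusted p under 0.05). Of all promoters, 0.0988% were higher and 0.0470% lower by edgeR. DESeq2 called 0 of 23756 promoters in either direction on this measure, so it could not single out a member. Errors were larger on this measure, and the run from Pcdhgb5 to Pcdhga11 had a median of 0.84, against 0.79 without the inputs. Pcdhgb7 stood at 0.82 (SE 0.52), Pcdhga11 at 1.33 (SE 0.50) and Pcdhga3 at -1.07 (SE 0.67), whereas Pcdhgb6 went from 1.27 to 0.43 (SE 0.54).

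EZH2 itself was deposited as counts on genes, and these hold almost no information on the members. Of the 58, 57 are listed at 0 in all 4 EZH2 libraries, as are 43.2% of all genes. Between 21.2% and 21.9% of the reads of an EZH2 library fell on more than 1 gene and were given to none, and these 57 genes have no sequence outside another gene. The zeros therefore do not show that EZH2 was missing there. Pcdha1, the member with sequence of its own, had 216 and 274 reads in control and 150 and 200 in ex14D, or 15.6 and 14.9 CPM in control and 11 and 12.2 in ex14D. Both ex14D values lay under both control values, with a log2 change of -0.43 (SE 0.10, adjusted p = 0.0381 by edgeR), in a table where 7.88% of 13401 genes were lower and 0.0522% higher. With either control library left out 0 of all genes passed in either direction, so the call could not be tested there, and the change at Pcdha1 was -0.40 and -0.46. By DESeq2, which called 743 genes lower, it did not pass (-0.44, adjusted p = 0.314).

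EZH2 domains, which do not depend on gene models, could be followed across all members. Both control libraries had a domain at 33 of the 58 promoters, where 16.0% of all genes had one, and both ex14D libraries had one at 12, where 9.85% of all genes did. By cluster the control count was 10 of 14 in alpha, 6 of 22 in beta and 17 of 22 in gamma, and the ex14D count was 3, 0 and 9. By library, 33 and 40 members had a domain in control and 17 and 13 in ex14D. Of all genes, 3962 and 5224 had one in control and 2784 and 2615 in ex14D. The genotypes thus did not overlap among the members, nor over all genes. Of the 33, 12 (36.4%) kept a domain in both ex14D libraries, where 61.2% of the 3910 genes with a control domain did. Another 15 of the 33 had no domain in either ex14D library. At the beta promoters no domain remained, since 6 and 9 promoters had a domain in the control libraries, against 0 in each ex14D library. Domains are shared between neighbours, and the 33 members of control library 1 rest on 25 domains while the 40 of control library 2 rest on 17.

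The 12 members that kept a domain were Pcdha11, Pcdhac1, Pcdhac2, Pcdhgb4, all 6 genes of the run from Pcdhgb5 to Pcdhga11, Pcdhga12 and Pcdhgc3. They lie towards the end of the alpha cluster and in the later part of the gamma cluster. At Pcdha12, which lies between Pcdha11 and Pcdhac1, ex14D library 1 had a domain and ex14D library 2 did not. Pcdhgc4 had a domain in both control libraries and in ex14D library 1, and Pcdhgc5 in control library 2 alone. At the other extreme, 18 members had no domain in any library, among them 13 consecutive beta genes from Pcdhb3 to Pcdhb15. In the beta cluster domains covered 21 and 36.5 kb in control and 1 and 0 kb in ex14D, although H3K27me3 peaks still covered 53.2 and 43.6 kb there in ex14D. In alpha they covered 34 and 63 kb in control and 20 and 17 kb in ex14D, and in gamma 62 and 96 kb in control and 43 and 44 kb in ex14D. Over the genome the domains covered 21.6 and 35.4 Mb in control and 15.1 and 19.7 Mb in ex14D. Reads on genes numbered 13861477 and 18403892 in the control EZH2 libraries and 13628137 and 16426765 in the ex14D libraries. The control libraries had 7322 and 7704 domains genome-wide, the ex14D libraries 5067 and 4122. The part of depth in these counts was not tested.

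**Figure D5:**
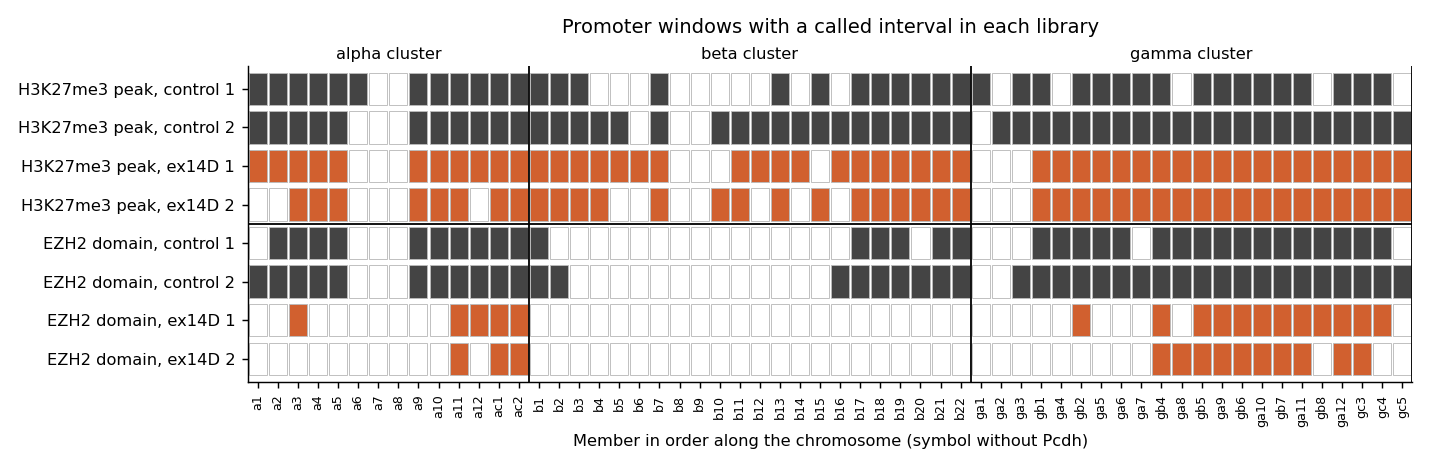
Presence of an H3K27me3 peak (upper 4 lines) or an EZH2 domain (lower 4 lines) at the promoter window of each member in chromosomal order, filled where the library has one (grey, control; orange, ex14D). Peaks are present at 39 members in both control libraries and at 40 in both ex14D libraries, while domains go from 33 to 12 and are absent from the beta promoters in ex14D.

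The H3K27me3 change was then grouped by what became of the EZH2 domain. The 12 members that kept a domain had a median log2 change of 0.41, and 4 of them (33.3%) rose, where 31.5% of 2336 promoters with a kept domain rose in the genome and 2.78% fell. The 21 members with a control domain that was not in both ex14D libraries had a median of -0.11 with 0 rising and 0 falling (edgeR), where 1.90% of 1423 such promoters rose and 9.77% fell. The 23 other members tested had a median of -0.33, and Pcdhga3 was the 1 that fell (4.35%), where 2.49% of 11074 such promoters fell and 0.876% rose. The EZH2 and H3K27me3 libraries are separate, so the domains did not use the counts that were tested, and a link between them was not tested.

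Related genes outside the clusters gave the following values. Of the 12 non-clustered protocadherins, 6 rose in H3K27me3 and 0 fell, with a median log2 change of 0.84, where 5.83% of all promoters rose and 3.25% fell. Pcdh7 changed by 2.14 (SE 0.26), Pcdh10 by 2.02 (SE 0.30) and Pcdh17 by 1.66 (SE 0.21). Of these 12, 8 had an EZH2 domain at the promoter in both control libraries and 7 kept it, where 61.2% of all genes with a control domain did. In the genome 31.5% of promoters with a kept domain rose in H3K27me3. All 10 Hoxa genes 1 to 11 rose as well (median log2 change 1.76), as did 10 of the 11 differentiation genes (median 0.98). In EZH2 counts 5 of the non-clustered protocadherins could be tested. Of these, 2 fell, Pcdh1 by 0.43 and Pcdh18 by 0.65 on the log2 scale, where 7.88% of all genes fell. Among the regulators of the clusters (CTCF, cohesin and its cofactors, DNA and H3K9 methyltransferases), 5 of 18 could be tested for a change in H3K27me3 and 0 passed (0 higher and 2 lower at an unadjusted p under 0.05, 0 by DESeq2). Dnmt3a and Dnmt3b, the de novo DNA methyltransferases, were the 2 regulators above input in control, by 3.48 and 2.22 on the log2 scale. The Dnmt3b promoter had an H3K27me3 peak and an EZH2 domain in both control libraries. At the Dnmt3a promoter neither a peak nor a domain was called in both. Among 14 genes that act with protocadherin proteins, 8 could be tested, and Ptk2 and Adam10 fell by 1.57 and 1.33 on the log2 scale, set against the same 3.25% of all promoters. Ptk2 encodes the focal adhesion kinase, and Adam10 encodes a protease that sheds the protocadherin ectodomain.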

How the data were processed

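The authors aligned the reads (Bowtie in the study's methods, Bowtie2 in the submitters' processing notes), counted them with HTSeq in a 1 kb window centred on the most upstream start site, and deposited whole read counts without normalization, with mm10 as the build. Reads on no counted feature made up 92.0% to 98.0% of the promoter tables and 33.8% to 34.9% of the EZH2 tables and stayed out of library sizes unless stated. Deposited EZH2 counts followed genes rather than promoters. The MACS2 peaks carry a deposited fold enrichment ratio and deposited −log10 p and −log10 q values. The fold ratio hardly followed promoter counts (Spearman rho 0.0555 to 0.0925), so peaks were used by position, and q only in an alternative. EZH2 domains were deposited as positions. The H3K27me3 domains extend past chromosome ends of GRCm38 and were not used.

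Members and gene lists were chosen with earlier results of these data known. RefSeq GRCm38 placed 24368 genes. Counts were tested on the whole table with edgeR 4.0.16 in R 4.3.3 (TMM, filterByExpr, quasi-likelihood F test, Benjamini-Hochberg, threshold 0.05), for H3K27me3 over input with genotype, antibody and their interaction in 1 model of 6 libraries, and for the change between genotypes with 4. Standard errors, the log2 value over the root of its F statistic, are approximate. Ratios used a pseudocount of 1 CPM. The 24 genes named by rule were those past a test of change, the 5 C-type genes and the 3 highest and 3 lowest control ratios of each cluster. Other genes were named after their values were seen. The procedure was tested on simulated data. Alternatives were DESeq2 1.42.0, other library sizes, no filter, other overlaps, a replicate block and each library left out. Same-numbered libraries did not deviate together (correlation -0.105 for H3K27me3 and -0.0317 for EZH2), so the numbers were not taken to pair them.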

Additional observations from a re-analysis of the deposited data

How the results depend on the processing

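A member tested against input had 5 to 36 input reads, which limits that comparison. With a library left out, 40 to 50 members were higher than input in control and 38 to 46 in ex14D (0 lower in each), with a median log2 difference of 2.07 to 2.67 and 2.21 to 2.38. In the same settings the change between genotypes gave 2 to 3 members higher and 0 to 1 lower (median -0.34 to 0.22), EZH2 0 to 1 lower (0 of all genes passed without a control library), and the change over input a median of -0.29 to 0.27. The simple ratio over all 58 members had a median of 0.44 to 0.97 in control and 0.33 to 0.50 in ex14D (0.78 and 0.40 with both libraries over the 55 with usable input). Peaks were at 41 to 51 members in control and 42 to 48 in ex14D in single libraries, and domains at 33 to 40 and 13 to 17. The change crossed 0 at Pcdha8 (-0.923 to 0.0706), Pcdhac1 (-0.0633 to 0.336), Pcdhga2 (-0.996 to 0.0778), Pcdhgc3 (-0.089 to 0.696), Pcdhgc4 (-0.623 to 0.304) and Pcdhgc5 (-0.651 to 0.878), and the difference over input in ex14D at Pcdha8 (-0.912 to 0.0798) and Pcdhga2 (-0.194 to 0.582).

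With library sizes alone the change gave 2 members higher and 10 lower (median -0.55), with 398 of all promoters higher and 2130 lower. The change turned at Pcdha11 (-0.0938), Pcdhac1 (-0.30), Pcdhb4 (-0.16) and Pcdhgc3 (-0.19). Over input in control, library sizes alone gave 27 members higher and 1 lower (median 0.87), with 2981 of all promoters higher and about 12970 lower. The difference turned at Pcdha1 (-0.0032), Pcdha8 (-1.21), Pcdhb4 (-0.43), Pcdhb8 (-0.27), Pcdhb11 (-0.54), Pcdhga1 (-0.31), Pcdhga2 (-0.44) and Pcdhga3 (-0.11). In ex14D they gave 17 members higher and 6 lower (median 0.41), with 2406 of all promoters higher and about 15660 lower. There the difference turned at Pcdha1 (-0.59), Pcdhb11 (-0.43), Pcdhb21 (-0.046), Pcdhga1 (-0.92), Pcdhga2 (-1.64), Pcdhga3 (-1.51) and Pcdhgc5 (-0.16). The change over input had a median of -0.53. With all counted reads as library size the median change was -0.24 and the median ratios 1.68 in control and 1.35 in ex14D. DESeq2 gave a median over input of 2.42 in ex14D and a median change over input of -0.0424. The EZH2 fall at Pcdha1 did not pass with library sizes alone, all counted reads, DESeq2 or the replicate block (0 members lower in each). Requiring a q under 0.001 left peaks at 12 members in control and 26 in ex14D, and an overlap of 500 bp left 16 in ex14D. The cause of these shifts was not tested.

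With the replicate block, 4 members were higher and 1 lower in H3K27me3, as without it, and Pcdhgc5 turned to 0.0563. Pairing library 1 of one genotype with library 2 of the other, an alternative chosen after seeing the data, gave 5 higher and 2 lower, with Pcdhgc5 at 0.0018 and Pcdhac2 past the threshold (0.61, adjusted p = 0.0102, edgeR).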
